A study of Mus musculus with 8 samples.

Results

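The proteasome subunits of mouse gastrocnemius, a calf muscle rich in fast fibres, were followed in 4 mice lacking Bcat2 and 4 wild-type mice. The set holds 33 genes of the 38741 gene symbols measured by RNA sequencing, taken by symbol: 14 of the 20S core (Psma1 to Psma7 and Psmb1 to Psmb7) and 19 of the 19S cap (Psmc1 to Psmc6, 12 Psmd genes and Adrm1). Each has 1 row in the data, and all 33 passed the filter on low values, a mean of at least 1 FPKM over the 8 mice. FPKM count fragments relative to exon length and to the mapped total of the library, so levels of different genes are compared per length. Knockout mice were homozygous for the Bcat2tm1.2Clyn allele, 10 to 11 weeks old and 15 to 24 g in weight. The wild type was 9 to 10 weeks of age, at 22 to 25 g. All were males on a C57BL6 background that could choose between an 18% protein chow and a purified diet without branched-chain amino acids from weaning on, as their dams could. Bcat2 encodes BCATm, which opens the catabolism of the branched-chain amino acids by moving their amino group in mitochondria. The knockout libraries KO5 to KO8 cannot be tied to single labelled knockouts, so age and weight are known for the genotype only. Nothing in the labels pairs knockouts with wild-type mice.

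The proteasome is the barrel-shaped protease that degrades ubiquitin-tagged proteins, and in muscle it does much of the breakdown of myofibrillar protein during atrophy. Its core is a stack of rings, with alpha subunits forming the outer rings and gating the entrance, and beta subunits forming the inner rings, where 3 of them (Psmb5, Psmb6 and Psmb7) carry the active sites. The cap binds ubiquitin chains, unfolds the substrate with a ring of 6 ATPases (the Psmc genes) and removes the ubiquitin before the chain enters the core. Within a core the subunits stand in equal number, as do the ATPases within a cap, and in mammals the transcription factor Nfe2l1 raises core and cap genes together when proteasomes are inhibited.

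The target gene separated the genotypes. Bcat2 (ENSMUSG00000030826, chromosome 7, 45570153 to 45589710, mm10) read 2.89, 5.26, 2.91 and 2.09 FPKM in KO5 to KO8, against 83.0, 42.7, 46.0 and 41.2 FPKM in WT1 to WT4 (log2 difference -3.65, SE 0.28, limma adjusted p = 0.00245). The 9 muscle markers in the data summed to 101272 FPKM in KO5 and 65749 to 67856 FPKM in the other knockouts. In wild type they summed to 66081 to 76947 FPKM. Mylpf alone read 49688 FPKM in KO5, against 19976 to 26911 FPKM in the other mice. Myh4, the myosin heavy chain of the fastest fibres, was lower in knockouts at an unadjusted p (difference -0.61, limma unadjusted p = 0.0106). KO6 and WT1 carried fat transcripts, with 8 adipocyte markers summing to 8296 FPKM in KO6 and 15746 FPKM in WT1, against 642 to 2047 FPKM in the other 6 mice. KO6 also held 8 skin markers at 575 FPKM in sum, against at most 3.36 FPKM elsewhere. The sum over 7 macrophage markers was 132 to 345 in knockouts and 108 to 219 FPKM in wild type, highest in KO6 and WT1. Over 8 lymphocyte markers the sum was 41.4 FPKM in KO6 and 1.23, 1.55 and 0.923 FPKM in KO5, KO7 and KO8. In wild type the lymphocyte sum was 1.58 to 5.65 FPKM. Markers of 4 further cell types overlapped between the genotypes in sum. They reached 27.2 to 51.5 FPKM in knockouts and 44.7 to 75.7 FPKM in wild type for 6 endothelial genes, 368.5 to 558 and 420.1 to 703 FPKM in the same order for 6 genes of fibroblasts and matrix, 74.0 to 179 and 49.6 to 92.7 FPKM for 6 of Schwann cells and nerve, and 557 to 2094 and 858 to 1770 FPKM for 5 erythroid genes. Of the 57 markers tested, 0 had an adjusted p under 0.05. At an unadjusted p under 0.05, 5 were lower in knockouts (Myh4, endothelial Cdh5 and Kdr, and the collagen genes Col1a1 and Col1a2) and 1 was higher (Mbp, of the myelin sheath), by limma, and their part in the results was not tested. Of all tested genes, 7.33% were lower and 2.99% higher at that threshold. Depth relative to WT2, read from the lowest FPKM, was 0.547 to 1.21 in knockouts and 0.437 to 1.23 in wild type. In whole muscle, fewer cells of a type and less RNA per cell cannot be told apart.

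Transcript levels were far from equal between subunits of 1 particle. Core genes averaged 23.5 FPKM (Psma5, an alpha ring subunit) to 308 FPKM (Psmb7, the trypsin-like active site) over the 8 mice, a 13.1-fold range with a median of 192 FPKM. Cap genes averaged 13.2 FPKM (Psmd5) to 155.5 FPKM (Psmd8, a lid subunit), an 11.7-fold range with a median of 50.0 FPKM. Psmd5 encodes a chaperone that helps assemble the base and leaves the finished particle. The lowest cap gene of the particle itself was Adrm1 at 23.7 FPKM, so the range within the particle is narrower. The 3 catalytic subunits were within 1.45-fold of each other, at 213 to 308 FPKM, and the 6 ATPases ran from 38.5 FPKM (Psmc4) to 109 FPKM (Psmc6), a 2.84-fold range. The lid, which holds the deubiquitinase Psmd14, ran from 32.9 FPKM (Psmd3) to 155.5 FPKM. The range across subunits was wider than the spread between mice of a genotype, as the plot of levels by mouse shows.

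**Figure D1:**
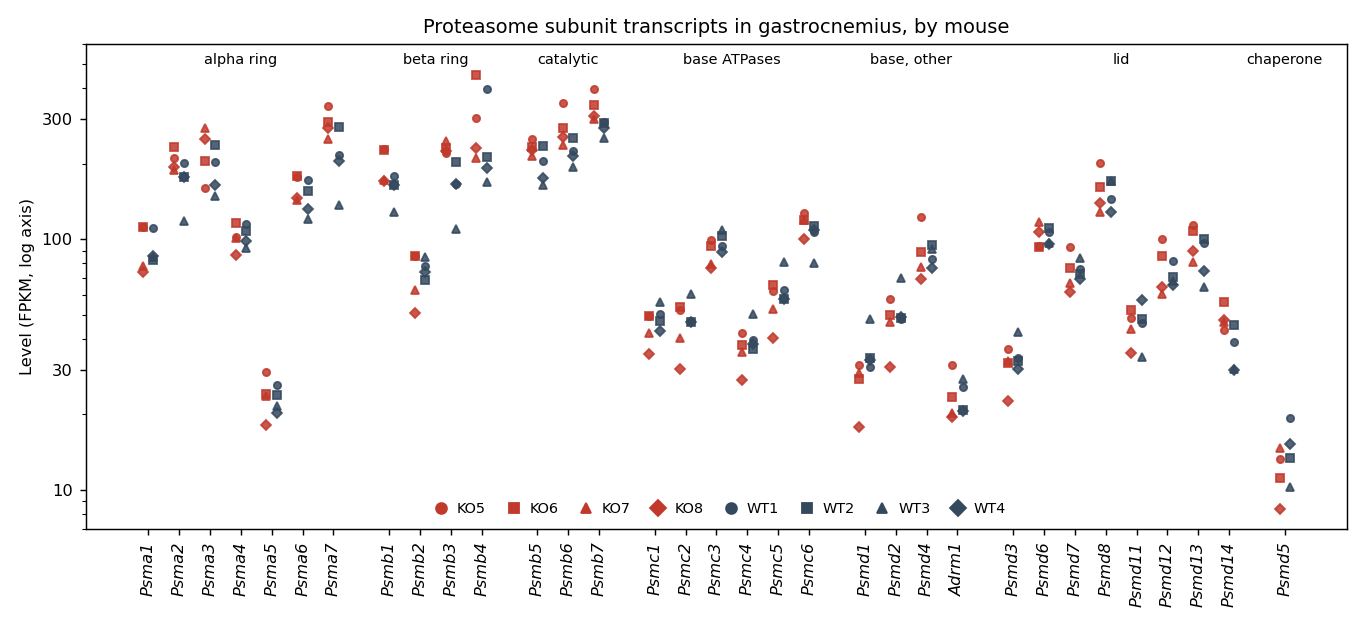
Level of each of the 33 proteasome subunit transcripts (FPKM, log axis) in the 4 knockout mice (red, left of each pair) and the 4 wild-type mice (blue, right), with 1 symbol per mouse and genes grouped by their place in the particle. Psma5 at 23.5 FPKM sits far below the other core genes, and Psmd5 at 13.2 FPKM is the lowest of all.

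The main comparison asked whether muscle without BCATm expresses its proteasome genes at another level. No subunit passed the test. Differences were taken on log2(FPKM + 1), knockout minus wild type, with limma-trend over all 11118 genes with a mean of at least 1 FPKM, 2-sided, and p adjusted over all of them by Benjamini-Hochberg at a threshold of 0.05. Of the 33 members 0 passed (lowest limma adjusted p = 0.48), where 0.027% of all tested genes did. An unadjusted p under 0.05 was reached by 3 members, Psmb3, Psma7 and Psmd14, all with higher knockout values, which is 9.09% of the members against 10.3% of all tested genes (2.99% higher and 7.33% lower). That split of all genes moves with the scaling, from 332 higher and 815 lower here to 750 higher and 574 lower with median-ratio scaling and 610 higher and 649 lower with quantile scaling. Without KO6, WT3 or WT4 only 1 member reached it, without WT2 there were 5, and without both KO6 and WT1, the mice with fat transcripts, 0. With 4 mice per group the exact permutation test can give no p below 0.0286, and the 8 mice stand for the spread between animals.

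The core lay further above the other tested genes than the cap did. The log2 difference was above 0 for 12 of 14 core genes (85.7%) and for 7 of 19 cap genes (36.8%), beside 36.4% of all tested genes, so the share of the cap was close to that of all genes. The median difference was 0.26 for the core and -0.03 for the cap, beside -0.12 for all tested genes. Relative to that all-gene median the core stood at 0.38, with 13 of 14 genes above it, and the cap at 0.08, with 10 of 19 above it. By mouse, with each gene set against its own mean, the core's relative median was 0.27, 0.09, 0.05 and 0.33 in KO5 to KO8. In WT1 to WT4 it was -0.05, 0.11, -0.52 and -0.16, so WT2 lay above KO6 and KO7 and the genotypes overlapped. The core's relative median was 0.25 without WT3, 0.17 without KO8 and WT3, 0.21 with quantile scaling (12 of 14 above) and 0.21 with a trend on transcript length and GC removed (10 of 14 above). The sign of the differences themselves moves with the scaling. Median-ratio scaling brought the median of all tested genes to -0.002, and with it the cap's median was 0.11 (10 of 19 genes above 0) and the core's 0.41 (14 of 14). With array weights the cap's median was 0.02, and without KO8 and WT3 it was 0.06 (14 of 19 genes above 0), while with the length and GC trend removed it lay 0.04 below the median of all genes. These counts and medians are descriptions with no test.

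**Figure D2:**
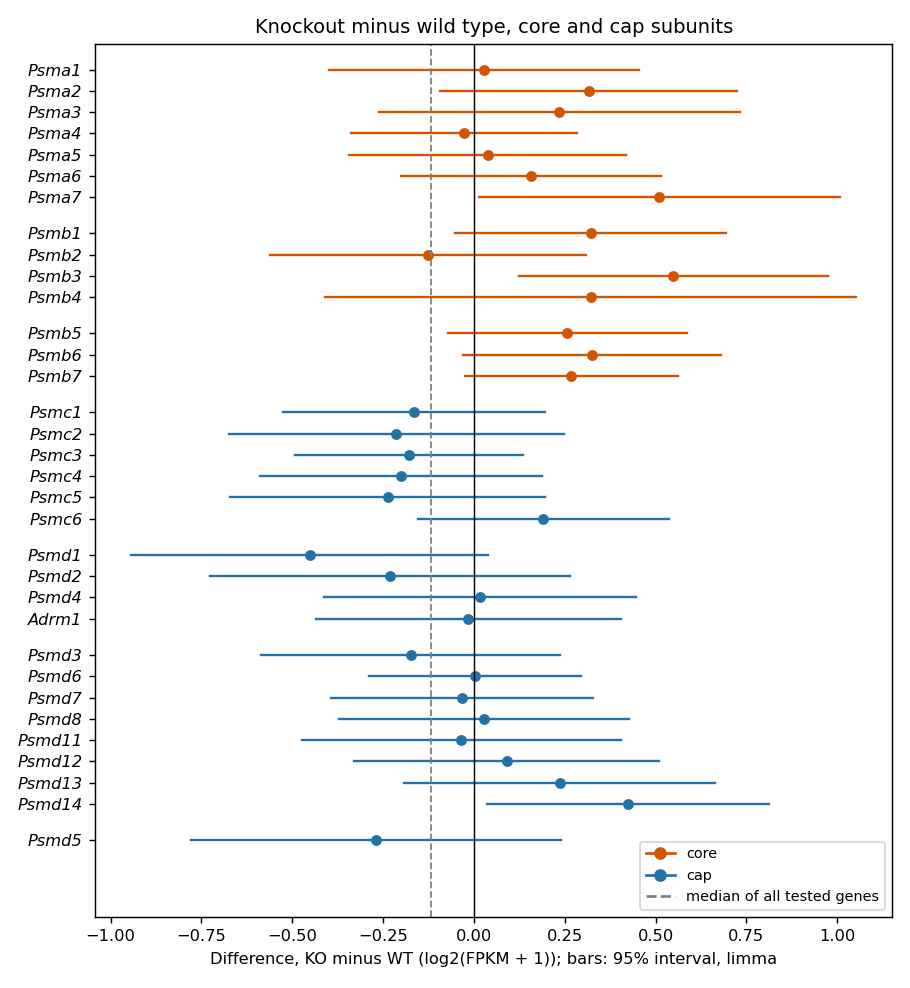
Difference between knockout and wild type (log2(FPKM + 1), horizontal axis) for each subunit, with the 95% interval from limma (bars), core genes in orange and cap genes in blue. The dashed line marks the median of all tested genes at -0.12, and 12 of 14 core genes and 7 of 19 cap genes lie right of 0 (14 and 10 with median-ratio scaling).

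In the alpha ring, 6 of 7 genes had a difference above 0 (7 with median-ratio scaling), from -0.03 (Psma4) to 0.51 (Psma7). Psma7, a subunit of the outer ring, read 341, 293, 252 and 278 FPKM in KO5 to KO8, against 217, 280, 136 and 205 FPKM in WT1 to WT4. All 4 knockouts lay above the wild-type mean, but WT2 reached into the knockout range, and the low end was WT3. The difference was 0.51 (SE 0.22, 95% interval 0.01 to 1.01, limma unadjusted p = 0.0452, limma adjusted p = 0.482, exact permutation p = 0.0857), and 0.32 without WT3. Psma2 averaged 207 ± 19.7 FPKM in knockouts and 169 ± 35.2 FPKM in wild type (SD, n = 4 each), and Psma3 223 ± 51.9 and 188.5 ± 40.0 FPKM in the same order. Psma6 had a difference of 0.16. Psma1, Psma4 and Psma5 had differences within 0.04 of 0, each with a 95% interval that spans 0. Psma4 overlaps AY074887 on the other strand.

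Among the 4 beta subunits without an active site, Psmb3, a structural subunit of the inner ring (ENSMUSG00000069744, chromosome 11, 97703399 to 97713500), differed most of all 33 members in all 8 mice. It read 221, 232, 247 and 224 FPKM in KO5 to KO8, against 166, 203, 110 and 165 FPKM in WT1 to WT4. The groups did not overlap, with every knockout above the highest wild-type mouse, and the knockouts were close together (231 ± 11.4 FPKM) while the wild type was spread out (161 ± 38.5 FPKM, SD, n = 4 each). The difference was 0.55 (SE 0.19, 95% interval 0.12 to 0.97, limma unadjusted p = 0.0174, limma adjusted p = 0.48, exact permutation p = 0.0286), and 0.38 without WT3. Psmb3 and Psmb7 were the 2 members of 33 (6.06%) whose knockouts all lay above the wild type, beside 2.08% of all tested genes. No member had all its knockouts below, beside 4.68% of all tested genes. Psmb1 averaged 200 ± 32.4 FPKM in knockouts and 159 ± 21.1 FPKM in wild type, with knockouts at 229, 226, 173 and 170.5 FPKM and wild type at 178, 165, 129 and 165 FPKM (difference 0.32, SE 0.16). Psmb4 was highest in KO6 and WT1, the mice with fat transcripts, at 303, 450, 211 and 232 FPKM in KO5 to KO8 and 395, 213, 169 and 192 FPKM in WT1 to WT4, and the part of fat in it was not tested. Psmb2, in contrast, had a difference of -0.13 (95% interval -0.56 to 0.31).

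The 3 catalytic subunits all had higher knockout means. Psmb5, the chymotrypsin-like site, read 250.1, 232, 215 and 227 FPKM in KO5 to KO8, against 205, 236, 164 and 175 FPKM in WT1 to WT4. Psmb6, the caspase-like site, read 349, 279, 236 and 256 FPKM in KO5 to KO8, against 225, 254, 194 and 215 FPKM in WT1 to WT4. In both genes WT2 lay inside the knockout range and WT3 was lowest. Psmb7, the trypsin-like site, read 396, 344, 301 and 309 FPKM in KO5 to KO8, against 293, 291, 254 and 278 FPKM in WT1 to WT4, with no overlap. The differences were 0.26 (SE 0.14) for Psmb5, 0.32 (SE 0.16) for Psmb6 and 0.27 (SE 0.13) for Psmb7, with limma adjusted p from 0.484 to 0.504 and exact permutation p of 0.114, 0.0571 and 0.0286. Without KO5 that of Psmb6 was 0.21. With the length and GC trend removed the differences were 0.13, 0.19 and 0.19. The 95% intervals ran from -0.07 to 0.59, -0.03 to 0.68 and -0.03 to 0.56. Psmb7 overlaps Nek6 on the other strand, and no strand setting is given, so its level is uncertain.

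**Figure D3:**
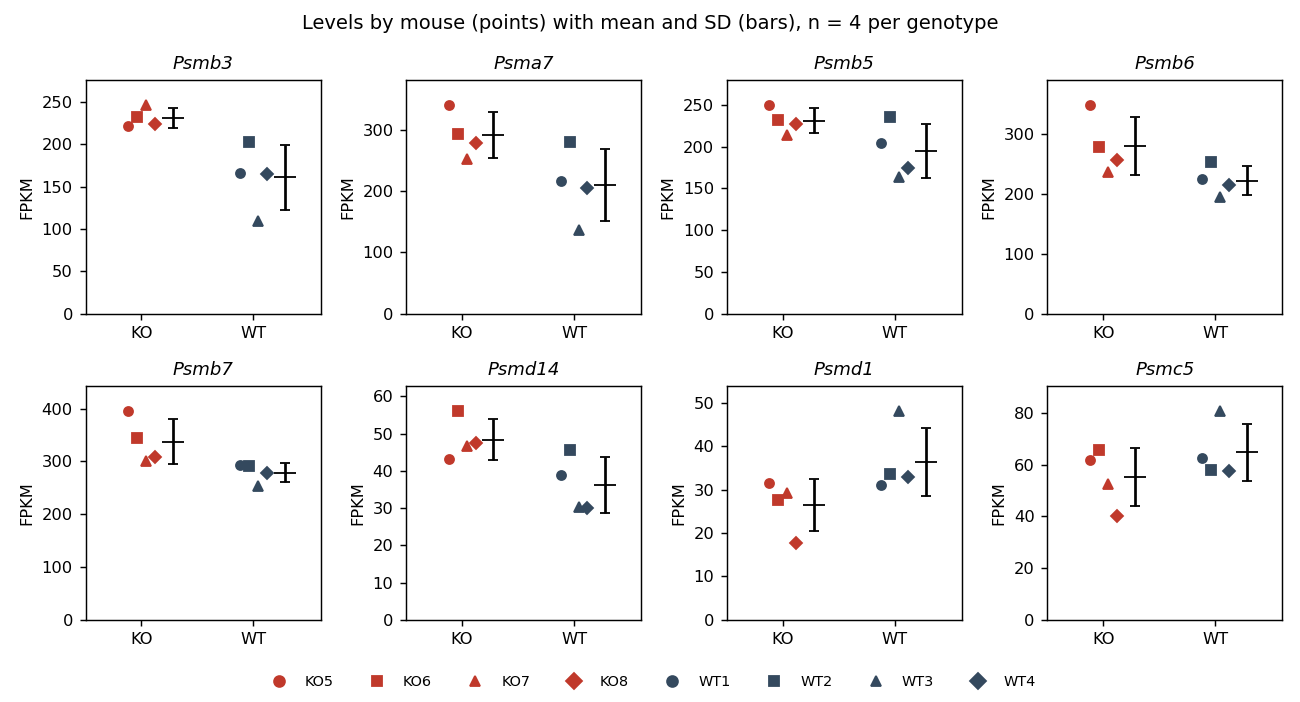
Levels (FPKM, from 0) of 8 subunits in each knockout mouse (red, left) and wild-type mouse (blue, right), with the mean and SD of each genotype as black bars (n = 4 each). Psmb3 and Psmb7 show no overlap, and WT3 is the lowest wild-type mouse in the 5 core genes drawn but the highest in Psmd1 and Psmc5.

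Promoters were read for 27 of the 33 members from RefSeq (GRCm38.p6), from 250 bases before to 50 after the start given there. That start can differ from the start of the gene in the deposited data. Shown are the subunit with the largest positive difference, the 2 catalytic genes with an entry and the subunit with the largest negative difference in all 8 mice. Capitals mark TGACNNNGC, the core letters of the antioxidant response element that Nfe2l1 and Nfe2l2 can bind, and CCAAT, the letters bound by NF-Y, each searched on both strands.
Psmb3 (chr11:97703184-97703483, plus strand): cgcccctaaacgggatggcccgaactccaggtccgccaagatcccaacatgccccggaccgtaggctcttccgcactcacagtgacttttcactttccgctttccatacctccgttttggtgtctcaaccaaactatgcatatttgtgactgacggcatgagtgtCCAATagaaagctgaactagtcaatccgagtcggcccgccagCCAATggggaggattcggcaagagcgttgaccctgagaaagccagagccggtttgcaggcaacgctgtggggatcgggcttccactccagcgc
Psmb5 (chr14:54617946-54618245, minus strand): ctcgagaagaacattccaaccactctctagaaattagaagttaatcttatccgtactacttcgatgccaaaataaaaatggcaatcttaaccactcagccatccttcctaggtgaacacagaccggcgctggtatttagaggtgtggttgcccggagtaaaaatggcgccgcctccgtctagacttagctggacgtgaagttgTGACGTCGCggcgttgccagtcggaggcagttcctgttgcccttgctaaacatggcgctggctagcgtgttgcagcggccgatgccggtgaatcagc
Psmb6 (chr11:70525107-70525406, plus strand): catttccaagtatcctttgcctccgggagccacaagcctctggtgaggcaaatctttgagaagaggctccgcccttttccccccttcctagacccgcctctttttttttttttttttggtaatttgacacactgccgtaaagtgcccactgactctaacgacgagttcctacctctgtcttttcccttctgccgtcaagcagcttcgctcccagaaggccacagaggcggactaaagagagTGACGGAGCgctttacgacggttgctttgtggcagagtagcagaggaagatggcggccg
Psmd1 (chr1:86064369-86064668, plus strand): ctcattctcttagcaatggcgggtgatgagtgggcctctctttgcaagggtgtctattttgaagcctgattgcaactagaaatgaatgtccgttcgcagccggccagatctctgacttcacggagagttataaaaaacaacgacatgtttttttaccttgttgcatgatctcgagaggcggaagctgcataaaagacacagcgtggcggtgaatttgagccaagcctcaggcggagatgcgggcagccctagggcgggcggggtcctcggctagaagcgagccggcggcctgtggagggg
The TGACNNNGC letters begin 47 bases before the RefSeq start in Psmb5 and 9 bases before it in Psmb6, while Psmb3 holds CCAAT and Psmd1 neither. In the deposited data Psmd1 starts at 86064387, so most of its window lies inside the gene as placed there. TGACNNNGC was found in 5 of the 27 members (18.5%), Adrm1, Psmb5, Psmb6, Psmc6 and Psmd12, beside 14% of the 27025 genes with a promoter of this length. It was in 2 of 11 core genes (18.2%) and 3 of 16 cap genes (18.8%). CCAAT was found in 11 of the 27 members (40.7%), beside 41.1% of all genes, and in 6 of 11 core genes (54.5%) and 5 of 16 cap genes (31.2%). A match describes the letters only.

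In the cap, 5 of the 6 ATPases had differences below 0, from -0.24 to -0.17, and only Psmc6 lay above 0. Of all tested genes 36.4% lay above 0, and their median was -0.12. Relative to that median the ATPases stood at -0.07. Without KO8 and WT3, 5 of the 6 ATPases lay above 0. Psmc5 read 62.0, 65.5, 52.7 and 40.3 FPKM in KO5 to KO8, against 62.6, 58.0, 80.8 and 57.6 FPKM in WT1 to WT4. The groups overlapped, and the extremes were KO8 at the low end and WT3 at the high end. Psmc3 read 98.9, 94.2, 79.7 and 76.4 FPKM in knockouts and 93.8, 103, 109 and 89.1 FPKM in wild type, and Psmc4 42.2, 37.97, 35.6 and 27.5 FPKM in knockouts and 39.5, 36.6, 50.3 and 38.2 FPKM in wild type. Psmc6 ran the other way, at 127, 119, 119 and 99.96 FPKM in knockouts and 107, 113, 80.4 and 109 FPKM in wild type, with WT3 lowest. The differences were -0.24 (SE 0.19) for Psmc5, -0.18 (SE 0.14) for Psmc3, -0.20 (SE 0.17) for Psmc4 and 0.19 (SE 0.15) for Psmc6, with limma adjusted p from 0.601 to 0.613. Without KO8 and WT3 those of Psmc5, Psmc4 and Psmc3 were 0.01, 0.02 and -0.07. That of Psmc6 was 0.08 without WT3 and 0.006 with the length and GC trend removed. Psmc3 overlaps Slc39a13 on the other strand. Psmc1 and Psmc2 had differences of -0.17 and -0.21.

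Of the 4 other base subunits, Psmd1, the scaffold that holds the base together and one of the largest cap proteins, differed most. It read 31.4, 27.6, 29.2 and 17.8 FPKM in KO5 to KO8, against 30.97, 33.7, 48.1 and 32.9 FPKM in WT1 to WT4. All 4 knockouts lay below the wild-type mean, but KO5 lay above WT1. The difference of -0.45 (SE 0.22, 95% interval -0.94 to 0.04, limma adjusted p = 0.484, exact permutation p = 0.0571) was the largest below 0 of all members in all 8 mice. Without KO8 it was -0.28, without WT3 -0.31, smaller than the -0.41 of Psmd5, and without both -0.14. Psmd1 overlaps Htr2b on the other strand and Gm21972 on the same strand. Psmd2, the other scaffold, averaged 46.2 ± 11.2 FPKM in knockouts and 53.9 ± 10.8 FPKM in wild type. The ubiquitin receptors Psmd4 and Adrm1 had differences of 0.02 and -0.02.

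The lid was mixed, with 5 of 8 genes above 0 (7 with median-ratio and 3 with quantile scaling). Psmd14, the metalloprotease that cuts ubiquitin chains off the substrate, read 43.2, 56.1, 46.7 and 47.6 FPKM in KO5 to KO8, against 38.9, 45.6, 30.3 and 30.1 FPKM in WT1 to WT4. Only WT2 lay inside the knockout range. The difference was 0.42 (SE 0.17, 95% interval 0.04 to 0.81, limma unadjusted p = 0.0358, limma adjusted p = 0.48, exact permutation p = 0.0571), and 0.28 with the length and GC trend removed. Psmd13 averaged 98.2 ± 15.2 FPKM in knockouts and 83.8 ± 17.3 FPKM in wild type (SD, n = 4 each), with knockouts at 114, 108, 81.4 and 89.7 FPKM and wild type at 96.5, 100.1, 64.2 and 74.6 FPKM. Its difference was 0.24, and 0.12 without WT3. Its gene overlaps Sirt3 on the other strand. Psmd6, Psmd7, Psmd8 and Psmd11 had differences within 0.04 of 0, Psmd12 one of 0.09 and Psmd3 one of -0.17. The chaperone Psmd5 read 13.3, 11.2, 14.7 and 8.41 FPKM in knockouts and 19.4, 13.5, 10.3 and 15.2 FPKM in wild type, a difference of -0.27 (SE 0.22), which was -0.13 without KO8 or WT1 and -0.41 without WT3.

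Set against each other within a mouse, core to cap was higher in most knockouts than in wild type. The mean core level was 2.84, 3.17, 3.00 and 3.34 times the mean cap level in KO5 to KO8, against 2.85, 2.68, 1.94 and 2.58 times in WT1 to WT4. Only WT1 reached into the knockout range, by a margin under 0.01. The core mean was 196 ± 19.6 FPKM in knockouts and 162 ± 24.8 FPKM in wild type, while the cap mean was 64.0 ± 9.1 FPKM in knockouts and 64.5 ± 3.53 FPKM in wild type (SD, n = 4 each). On the log2 scale, with each gene set against its own mean over the 8 mice, the core median minus the cap median was 0.08, 0.19, 0.12 and 0.31 in KO5 to KO8, against 0.02, -0.02, -0.53 and -0.10 in WT1 to WT4. Here the groups did not overlap, and WT3 stood far below the other wild-type mice. The gap, from WT1 to KO5, was narrow beside a pooled SD of 0.19 within genotypes. How often other sets of genes show no overlap was not worked out. WT3 held the lowest value of the 8 mice for 10 of 14 core genes and the highest for 8 of 19 cap genes. KO8 held the lowest value for 12 of 19 cap genes and for 4 core genes, and KO5 the highest for 7 core and 7 cap genes.

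The balance was also set beside transcript length, whose part in it was not tested. The transcripts with the longest coding sequence had a median length of 1220 nt in the core and 1989 nt in the cap. Over all tested genes, the median of the 2101 genes under 1500 nt minus that of the 3629 genes over 4000 nt was 0.09, 0.06, -0.08 and 0.23 in KO5 to KO8, against -0.001, -0.05, -0.57 and -0.21 in WT1 to WT4. WT3 and KO8 were thus the extremes of short against long transcripts too, but KO7 lay below WT1 and WT2. With a trend on transcript length and GC removed in each mouse, core minus cap was 0.08, 0.06, 0.09 and 0.23 in KO5 to KO8, against 0.04, -0.01, -0.23 and -0.09 in WT1 to WT4, still with no overlap but with WT3 nearer the rest. The median difference of the core minus that of the cap was 0.30 in all 8 mice, 0.25 with the trend removed, 0.24 without WT3, 0.40 without KO6 and WT1, and 0.12 without both KO8 and WT3.

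**Figure D4:**
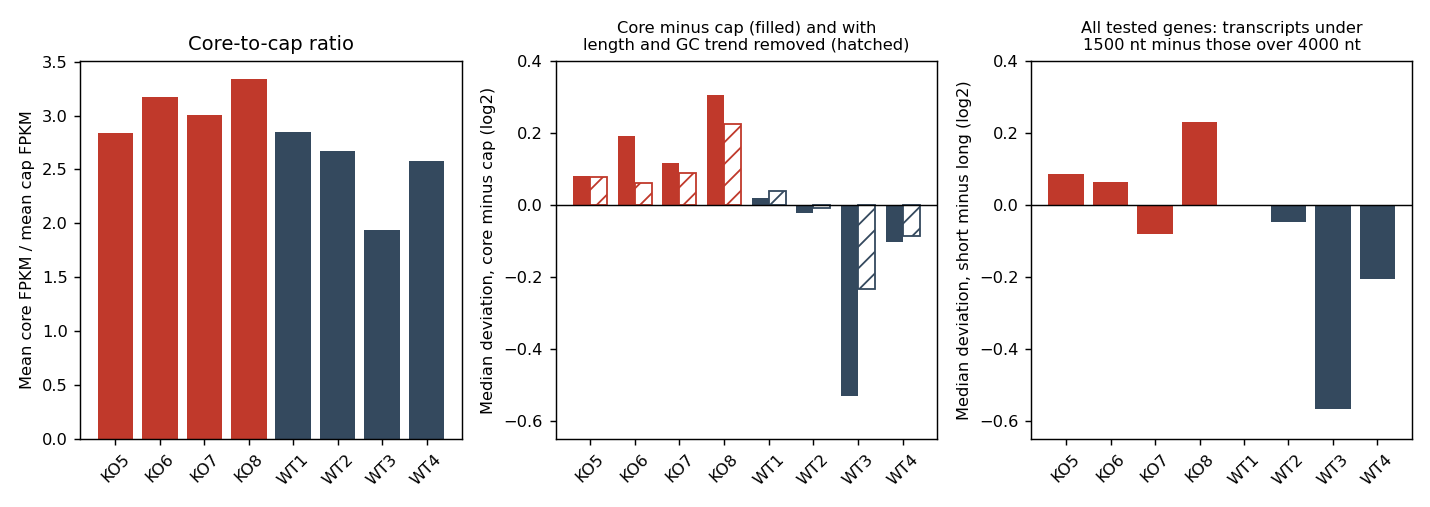
Balance of core and cap in each knockout (red, left) and wild-type mouse (blue, right): the ratio of mean FPKM (left panel), the core minus cap median on the log2 scale before (filled) and after (hatched) removal of the length and GC trend (middle), and the median of short minus long transcripts over all tested genes (right). WT3 is lowest in all 3 panels, and KO8 highest.

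Other genes of the pathway, from lists of names, gave 0 calls at an adjusted p under 0.05. At a limma unadjusted p under 0.05, 2.99% of all tested genes were higher in knockouts and 7.33% lower, shares that move with the scaling. Of 7 assembly chaperones tested, 1 had an unadjusted p under 0.05, Psmg4, which helps assemble the alpha ring. Psmg4 averaged 27.1 ± 5.36 FPKM in knockouts and 17.2 ± 5.46 FPKM in wild type (SD, n = 4 each, difference 0.67, limma adjusted p = 0.48). Its partner Psmg3 averaged 17.6 and 13.85 FPKM in the same order, and the list median was 0.02. Of the 3 tested immunoproteasome subunits, which replace the catalytic subunits in immune cells and under interferon, 0 had an unadjusted p under 0.05, with Psmb9 at 5.83 ± 2.97 FPKM in knockouts and 5.59 ± 3.66 FPKM in wild type and Psmb10 at 12.6 and 12.5 FPKM. The thymus form Psmb11 and the testis form Psma8 were at most 0.0816 FPKM in any mouse and were not tested. Among 5 activators and inhibitors of the core, whose median difference was -0.32, the core inhibitor Psmf1 averaged 4.62 FPKM in knockouts and 5.89 FPKM in wild type, and the nuclear activator Psme3 25.2 and 31.6 FPKM in the same order.

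Nfe2l1, the activator of proteasome genes, read 92.2, 95.6, 96.7 and 68.3 FPKM in KO5 to KO8, against 96.2, 99.1, 159 and 105 FPKM in WT1 to WT4. Its difference of -0.36 (SE 0.20, limma adjusted p = 0.501, exact permutation p = 0.0571) lay below the -0.12 of all tested genes. Among the 9 regulators, 0 had a limma unadjusted p under 0.05, beside 10.3% of all tested genes, and the median difference was -0.10. Zfand5, which binds the proteasome and is raised in muscle atrophy, had the smallest p there, at 232, 197, 111 and 130 FPKM in knockouts and 105, 128, 103 and 112 FPKM in wild type (difference 0.52, limma adjusted p = 0.484). KO5 and KO6 were the high mice. Of 11 cap partners, 2 had lower knockout values at an unadjusted p under 0.05, the shuttle factor Ubqln4 at 16.2 ± 2.55 FPKM in knockouts and 23.9 ± 6.75 FPKM in wild type and the ligase Ube3c at 7.24 ± 1.07 and 9.95 ± 1.83 FPKM in the same order (limma adjusted p = 0.48 for both). Of 8 ubiquitin genes and enzymes, 1 reached it, Rps27a, which encodes ubiquitin fused to a ribosomal protein, at 984 ± 182 FPKM in knockouts and 558 ± 183 FPKM in wild type (SD, n = 4 each, limma adjusted p = 0.48), while the ubiquitin-conjugating enzyme Ube2n averaged 11.3 FPKM in knockouts and 13.9 FPKM in wild type and the polyubiquitin gene Ubb 111 and 109 FPKM in the same order.

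The authors' deposited table flags 15 of the 33 members (45.5%) at p under 0.05, beside 20.2% of all tested genes, and 3 of them, Psma7, Psmb3 and Psmb6, at p under 0.001, beside 10.8% of all tested genes. Of the 14 core genes 9 carry the flag in the authors' deposited table, all with higher knockout means, and of the 19 cap genes 6 carry it, 1 of them (Psmd14) with a higher knockout mean. No source used here gives the test behind these flags, and in the authors' deposited table Psmb4 is flagged although 2 knockouts lay below the wild-type mean. The flag at p under 0.001 also falls on the abundant muscle marker Ckm, at 11712 FPKM in knockouts and 11814 FPKM in wild type. The members are abundant too, with a median of 91.0 FPKM, and the share flagged among genes of like level was not worked out.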

How the data were processed

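Gastrocnemius RNA of 8 male mice was sequenced from TruSeq v2 libraries, 50 cycles from one end. Alignment to mm10 used TopHat 2.0.9, and FPKM came from Cufflinks on uniquely mapped reads, per the labels' protocols, which give version 2.0.2, while the submitters' processing notes give 2.2.1. No source used here gives the annotation or the strand setting. The deposited values are FPKM per mouse, with the authors' mean FPKM, SE and flags of 0 or 1 for the authors' p-value in further columns, per the file headers. Unique mapping leaves out reads that a subunit shares exactly with its pseudogenes (for example Psmb6-ps).

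The highest-mean row per symbol was used (39009 rows, 38741 symbols). Genes with a mean of at least 1 FPKM (11118) were tested with limma-trend on log2(FPKM + 1), with genotype as the only term. That scale understates the change of low genes. Exact permutation tests over the 70 labelled splits stand beside single members. FPKM hold no read totals, so no counting interval is given, and depth relative to WT2 was read from the mode of ratios of FPKM under 0.3. Transcript length and GC came from GENCODE M21 (99.2% of tested genes). Members and lists were chosen with earlier results of these data known. Given in full are Bcat2, the catalytic subunits and the 6 core and 8 cap members with the smallest unadjusted p. Of each list the 2 genes with the smallest p are given, with Nfe2l1. Psma2, Psma3, Psmb2, Psmb4, Psmd2, Psmb11, Psma8, Ubb, Cops2, Cops3, Cops7a, Ckm, Mylpf and the 6 markers with a small p were added after their values were seen. The list genes Paaf1, Ecm29, Acta1 and Adgre1 are not analysed here. Simulated data with 11118 genes and 100 genes changed at each size gave a recovery of 49% at a log2 change of 1 and 90% at 2, with 4 false among 143 calls. Changes as small as those of the members were not simulated, nor were shifts that many genes of a mouse share. R 4.3.3, limma 3.58.1, Python 3.11.15, pandas 2.3.3 and matplotlib 3.10.9 were used.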

Additional observations from a re-analysis of the deposited data

Results flagged for a closer look

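For each of the 33 subunits and 4 summaries of core and cap, the highest or lowest mouse of each genotype was set against the others by Dixon's test. Of 74 groups of 4 mice, 4 held a mouse that stood apart, and chance gives about 1 in 20 groups. In 3 of them the mouse was WT3, each time in a cap gene. Psmc2, a base ATPase, was 60.4 FPKM in WT3, against 46.8 to 47.3 FPKM in the other wild-type mice. Psmd2, a base scaffold, was 70.03 FPKM in WT3, against 48.1 to 49.0 FPKM in the others. Psmd1, the other base scaffold, was 48.1 FPKM in WT3, against 30.97 to 33.7 FPKM in the others. Psma1, an alpha ring subunit, was 111 FPKM in WT1, against 82.8 to 86.0 FPKM in the other wild-type mice, and WT1 also carried the highest sum of adipocyte markers. In KO5 and KO6 Psma1 was 112.3 and 111.7 FPKM, with adipocyte sums of 2047 and 8296 FPKM. The part of fat in Psma1 was not tested.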

How the results depend on the processing

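The settings were pseudocounts of 0.1 and 0.5, no filter or a filter at 5 FPKM, median-ratio and quantile scaling, array weights, robust eBayes, summed rows, the length and GC trend removed, FPKM of 0 as missing, each mouse left out, KO6 and WT1 left out, and, chosen after seeing the data, KO8 and WT3 left out. In every one, 0 members passed by limma (lowest adjusted p of any member 0.356). The count of all genes called was 3, 4 to 9 with 1 mouse left out, 11 without KO6 and WT1 and 1 with FPKM of 0 as missing. Members with an unadjusted p under 0.05 numbered 3, 6 with median-ratio scaling, 6 with array weights, 1 with the length and GC trend removed, 1 to 5 with 1 mouse left out (1 without KO6, 1 without WT3, 1 without WT4, 5 without WT2), 0 without KO6 and WT1 and 1 without KO8 and WT3. The relative median of the core was 0.17 to 0.48 over all settings. That of the cap was 0.08 and ran from -0.0393 (length and GC trend removed) to 0.11, so its sign is not settled. Core minus cap was 0.12 to 0.40. The cause of these moves was not tested. Bcat2 was -3.56 without KO8 and WT3 and no longer past the threshold (limma adjusted p = 0.187). Psmc4 and Psmc5 changed sign there, to 0.015 and 0.0113. No paired analysis was possible because the knockout columns carry numbers that match no replicate number in the labels. FPKM give no read totals, so limits set by depth could not be worked out.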

Other observations

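The COP9 signalosome, the complex that removes Nedd8 from cullin ubiquitin ligases and is built like the proteasome lid, was also on a list of names. Of its 9 genes 0 passed by limma, 4 had a difference above 0 and the list median was -0.20, beside -0.12 for all tested genes. Gps1, one of its subunits, read 10.2, 11.7, 11.2 and 10.3 FPKM in KO5 to KO8, against 12.3, 13.01, 14.7 and 13.3 FPKM in WT1 to WT4. All 4 knockouts lay below the wild type (difference -0.27, limma adjusted p = 0.481, exact permutation p = 0.0286), as they did in Cops7a, beside 4.68% of all tested genes. The largest difference of the list lay above 0, at 0.48 for Cops3, and that of Cops2 was 0.29. Cops4 averaged 31.45 ± 3.63 FPKM in knockouts and 42.3 ± 8.54 FPKM in wild type (SD, n = 4 each).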
